A study of Drosophila melanogaster with 2 samples.

Results

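Among the features that differed between ovaries heterozygous and homozygous for a mutation of CG5508, 5 genes were chosen by name: gfA, CG34384, tipE, CG43163 and CG18675. They were chosen because few reads were counted in one genotype and many in the other, so their ratios are given as a description with no test. The 5 genes are among 98 genes and 296 features, counting transposon insertions and strands of piRNA clusters, in the authors' deposited lists. In those lists they take up 27 of 537 entries, because each annotated transcript of a gene has an entry of its own.

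GfA is the older name of nAChRalpha7, a subunit of the nicotinic acetylcholine receptor, the channel of fast cholinergic transmission between insect neurons, and it is known for its part in the giant fiber escape circuit. TipE is an auxiliary subunit that raises the current through para, the voltage-gated sodium channel of nerve cells, and it has homologs named Teh. CG34384 has DgkD, for a diacylglycerol kinase, among its RefSeq synonyms. Such kinases turn diacylglycerol into phosphatidic acid, a membrane lipid and signal. For CG43163 and CG18675 no role is given here. Receptor and sodium channel subunits of this kind are known from the nervous system, while an ovary is made up mainly of germline and follicle cells.

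The study asked what loss of CG5508 changes in the ovary, and its title places the gene, minotaur (mino), in the production of piRNAs, the small RNAs that silence transposons. RNA was taken from ovaries of *Drosophila melanogaster* flies 3 to 5 days old, kept at 25 °C, either heterozygous or homozygous for the allele z3-5967. Each genotype was sequenced once, so the differences below rest on 1 library against 1 with no replicate to check them. Which chromosome lay opposite the mutation in heterozygous flies is not stated. In RNA of whole ovaries, fewer cells of a type and less RNA per cell cannot be told apart. No list held the mutated gene itself, and the genotype labels could not be checked against its level. Sizes of the whole libraries were not known. By the authors' scaling the homozygous library was 1.34 times as deep as the other, and levels below are read counts after that scaling (normalized reads). Parentheses after a fold hold its exact 95% interval, which covers counting error only.

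Of the 5 genes, gfA and CG34384 were higher in homozygous ovaries, and tipE, CG43163 and CG18675 were lower. With uniquely mapped reads, 4 of the 5 were listed, 2 in each direction. For comparison, the authors' raw and adjusted p-values imply that 21957 entries were tested, of which 0.515% were listed as higher and 0.137% as lower. Counted with up to 10 mappings per read, all 5 genes were listed, 2 higher and 3 lower, against 1.55% and 0.114% of 23690 entries. The label near-silent held for 4 of the genes, which had 2 to 8 uniquely mapped reads in the library where they were low. It held less well for CG18675, with 21 reads there.

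**Figure D1:**
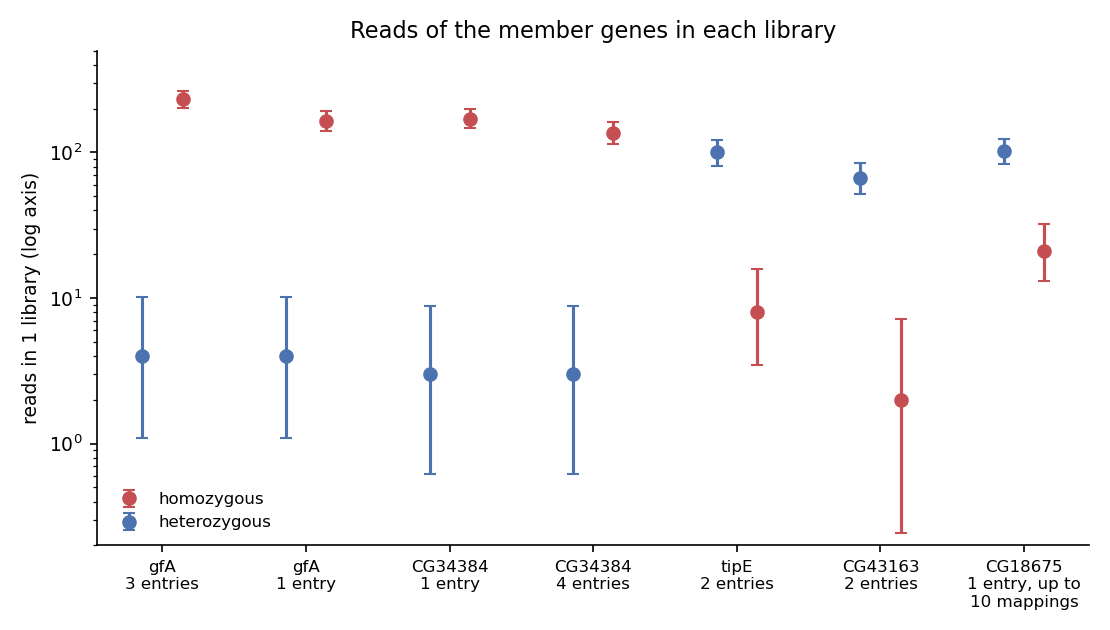
Reads of each member gene in the heterozygous (blue) and homozygous (red) library on a log axis, with exact 95% Poisson intervals, for uniquely mapped reads except CG18675. Entries of a gene with the same reads share a position, gfA and CG34384 are high in the homozygous and the others in the heterozygous library, and these reads are the values by which the genes were chosen.

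GfA held 232 homozygous and 4 heterozygous reads. Scaled for depth these were 200.6 and 4.63 normalized reads, a 43.4-fold difference (16.7 to 161). The low side is a handful of reads, so the size of the fold is loosely set. In the dm6 build the gene lies on the minus strand of the X chromosome from 19327075 to 19348447, under the name nAChRalpha7 (FBgn0086778). It had 4 entries, of which FBtr0074680, FBtr0074681 and FBtr0301834 had identical values. The fourth, FBtr0301835, held 165 reads against the same 4, a 30.8-fold difference (11.8 to 115). The entries thus differed by 67 homozygous reads and by none in the heterozygous library.

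The dm6 exons of gfA gave no stretch to which those 67 reads could belong. All 4145 exon bases of FBtr0074680 are also exonic in FBtr0301835, which adds the 69 bases from 19329721 to 19329789 that are an intron in the others. Under exon counting in dm6, FBtr0301835 could therefore hold no fewer reads. The dm3 models of the authors were not used here. FBtr0301834 extends the last exon by 1479 bases downstream, from 19327075 to 19328553, and lacks 102 bases of the first. Its reads equalled those of FBtr0074680 all the same.

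CG34384 held 171 homozygous and 3 heterozygous reads, or 147.9 and 3.47 normalized reads, in its highest entry, FBtr0304918. That is a 42.6-fold difference (14.3 to 209). Here too the heterozygous library was nearly empty and the homozygous one was not. The gene (FBgn0085413) lies on the plus strand of chromosome arm 3R from 7814361 to 7855392 in dm6. Its other 4 entries held 137 and 3 reads, a 34.1-fold difference (11.4 to 168).

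The transcripts of CG34384 differ at both ends, and their reads can be set against those differences. FBtr0304918 has 1561 exon bases that FBtr0112625 lacks, 1492 of them in a longer last exon from 7853901 to 7855392. It held 34 more homozygous reads and no more heterozygous ones, which comes to 21.8 reads per kilobase of added exon. Over the 7200 exon bases of FBtr0112625 the homozygous library had 19.0 reads per kilobase. Over the exons of FBtr0302036, which lacks the first exons, it had 22.2. The 21.8 lies between these, and it covers 69 bases of an inner exon as well as the longer 3′ end.

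At the 5′ end, FBtr0112625 has the first exons, 1212 bases in all, that FBtr0302036 lacks. FBtr0302036 has a start of its own, a 174-base exon from 7822035 to 7822208. Both transcripts held 137 and 3 reads, so the upstream exons added none over the downstream start. On dm6 models, reads of the homozygous library therefore lay in the shared downstream exons and the added exon bases of FBtr0304918. The exception would be equal numbers on the 1212 and the 174 bases. As dm6 exons did not account for the reads of gfA, this placement is uncertain. FBtr0304919, which skips 72 bases, and FBtr0304920, with 123 more, also held 137 reads.

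**Figure D2:**
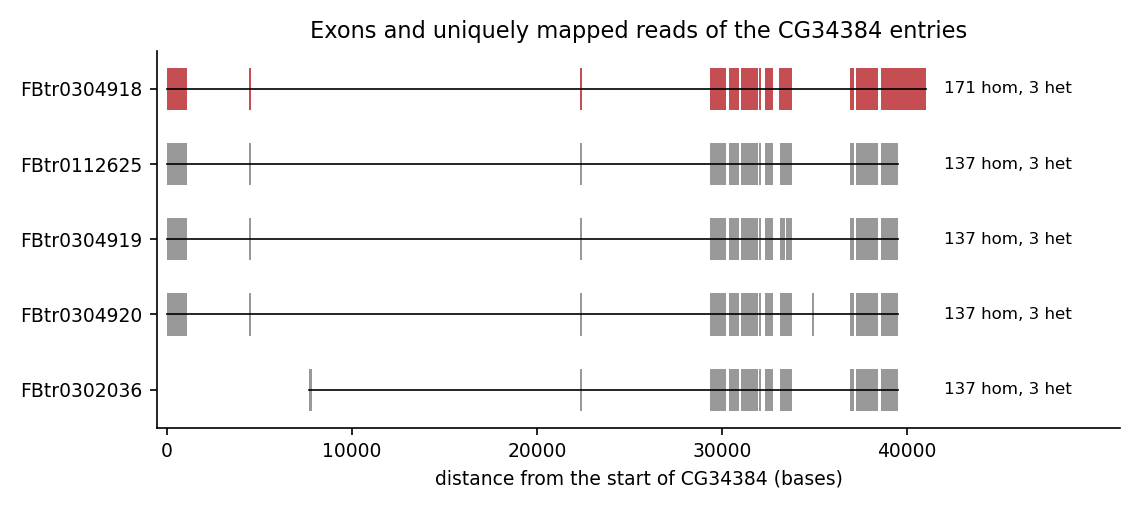
Exons (boxes) of the 5 listed CG34384 transcripts in dm6, by distance in bases from the start of the gene, with the uniquely mapped reads of each entry in the homozygous (hom) and heterozygous (het) library. FBtr0304918, in red, with the longer last exon, had 171 homozygous reads, and the other 4 had 137, including FBtr0302036, which lacks the first exons.

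TipE went the other way, with 100 heterozygous and 8 homozygous reads. These were 115.6 and 6.92 normalized reads, a 16.7-fold fall (8.17 to 39.8). The gene (FBgn0003710) lies on the plus strand of arm 3L from 4188499 to 4193788 in dm6. Its entries, FBtr0073219 and FBtr0073220, had identical reads, although in dm6 they differ by 688 bases present only in FBtr0073220 and 146 only in FBtr0073219. The level in the heterozygous library was 34.1 normalized reads per kilobase of FBtr0073219. Part of the last exon is shared with CG18675, as described below, and reads there cannot be assigned to either gene.

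CG43163 had the steepest fall of the lower list. It held 67 heterozygous and 2 homozygous reads, or 77.5 and 1.73 normalized reads, a 44.8-fold difference (11.9 to 378). The homozygous level was the lowest and the mean, 39.6 normalized reads, the smallest among the 23 lower features. The gene (FBgn0262719) lies on the minus strand of 3L from 8472807 to 8507146. Both of its entries, FBtr0305700 and FBtr0308608, had the same reads, and they differ in dm6 by a 92-base exon. Its transcripts are long, with 7878 exon bases in FBtr0305700, so the level in the heterozygous library was only 9.84 normalized reads per kilobase.

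CG18675 was listed with up to 10 mappings per read alone. The single-library columns of those lists are headed zucMUT and zucCD, names of neither sample, so its value rests on the assumption that the lists compare the CG5508 genotypes. The lists are named for CG5508, and 34 of 134 entries shared with the uniquely mapped lists differed from them by one constant on the log2 scale, but CG18675 is not among the shared entries. The authors' deposited table gave it a mean of 68.2 normalized reads and a 6.52-fold fall, from which 118.2 heterozygous and 18.1 homozygous normalized reads follow. These levels correspond to 102 and 21 reads, and the interval of the fold was 4.05 to 11.0. It was also the weakest call, with an adjusted p of 0.0873 in the authors' deposited table. Its 1 entry, FBtr0073218 (FBgn0040696), runs on the plus strand of 3L from 4173884 to 4192968 in dm6.

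The spans of CG18675 and tipE overlap on the same strand. The last of the 4 exons of CG18675, 777 bases from 4192192 to 4192968, lies wholly within the last exon of tipE. This stretch makes up 48.3% of the exon bases of CG18675 and 19.0% of those of tipE, so reads that fall there cannot be assigned to either gene. In the list with up to 10 mappings, tipE held 100 heterozygous and 8 homozygous reads, close to CG18675 in the heterozygous library. If reads of the shared stretch were counted for both genes, at least 2 heterozygous and 13 homozygous reads of CG18675 lay outside tipE. They lay in the 831 exon bases that CG18675 has of its own. Taken alone, this minimum is higher in the homozygous library, even at its 1.34 times greater depth, against the listed direction. The other 100 and 8 could be shared or not, and how many of them were was not tested. A fall of CG18675 apart from tipE is therefore uncertain. The reads of tipE could in the same way include reads of CG18675, so a fall of tipE apart from CG18675 is uncertain too.

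The long last intron of CG18675 also holds genes on the opposite strand, the tipE homologs Teh2, Teh3 and Teh4 and the proton pump subunit gene VhaM9.7-c. None of these 4 genes was in any list, so the listed difference at this locus covered the plus-strand genes alone. Levels of the unlisted genes were not analysed here.

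**Figure D3:**
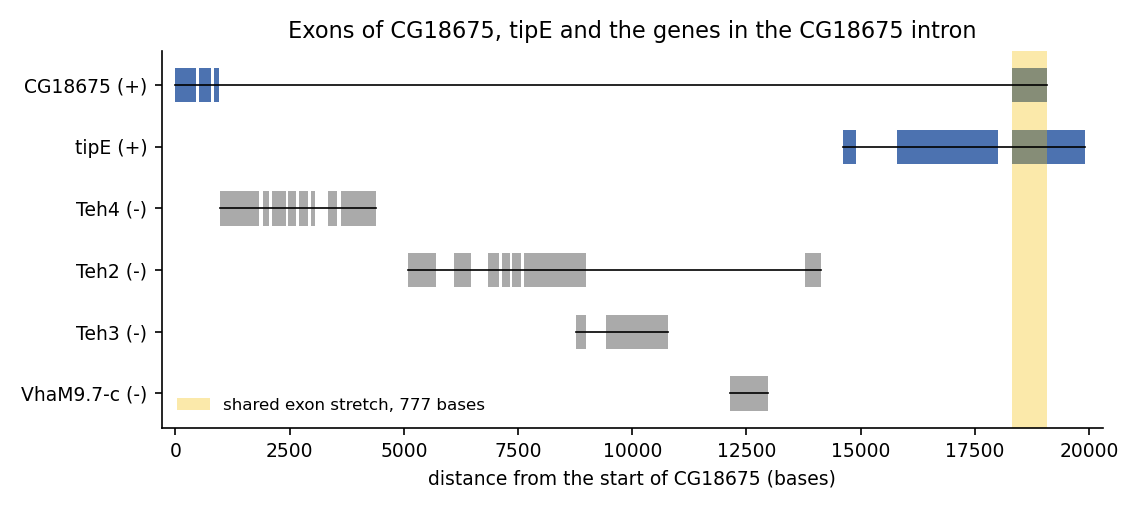
Exons (boxes, all transcripts merged) of CG18675, tipE and the genes within the CG18675 intron in dm6, by distance in bases from the start of CG18675, with strand in brackets. Listed genes are in blue and genes in no list in grey, and the yellow band is the 777-base exon stretch that CG18675 shares with tipE.

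Allowing up to 10 mappings added between 0 and 5 reads per library to the 4 genes listed in both treatments. For tipE the same 100 and 8 reads were counted either way. For gfA, mappings of up to 10 places added 3 homozygous reads to 232 but 5 heterozygous reads to 4, and the fold became 19.4 (10.1 to 43.1). CG43163 gained 5 heterozygous and 4 homozygous reads, which brought 67 against 2 to 72 against 6 and the fold to 16.1 (7.05 to 45.4). CG34384 gained 1 read in each library and went to 32.0-fold (12.3 to 119). In FBtr0302036, without the first exons, the 137 and 3 reads of CG34384 were unchanged. By dm6 models the added reads thus lay in exons that this transcript lacks, a placement as uncertain as that above. The values with up to 10 mappings follow from the means and folds of the authors' deposited table. Both treatments count largely the same reads of the same libraries, so one is no check of the other.

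**Figure D4:**
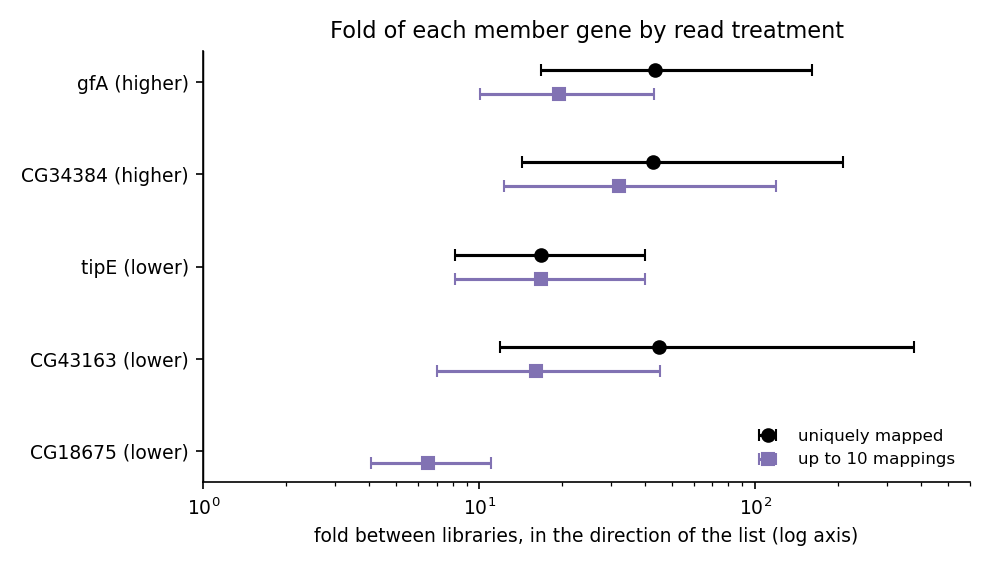
Fold between the libraries for each member gene in the direction of its list, on a log axis, with exact 95% intervals, for uniquely mapped reads (black circles) and up to 10 mappings per read (purple squares). Folds of gfA and CG43163 were 43.4 and 44.8 with unique reads and 19.4 and 16.1 with up to 10 mappings, that of tipE was 16.7 and 16.8, and CG18675 had a value with up to 10 mappings alone.

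The same values can be set beside those of all listed features. Under 10 normalized reads in the low library were found for 22.8% of the 57 higher features and 8.7% of the 23 lower ones with uniquely mapped reads. In the lower list these were tipE and CG43163 and no other feature. Among higher features they were 13, of which 7 were genes, gfA and CG34384 included. By fold, gfA ranked 10 and CG34384 ranked 11 of 57, whereas CG43163 ranked 1 and tipE 2 of 23. The median fold over the list was 9.35 for higher and 3.47 for lower features. At least 4-fold differences were reached by 75.4% of the higher and 43.5% of the lower features. With up to 10 mappings these shares were 85.6% and 52.4%, and the shares under 10 normalized reads were 10.3% and 9.52%. All of these measures come from the contrast that chose the genes, so nothing is read from them.

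**Figure D5:**
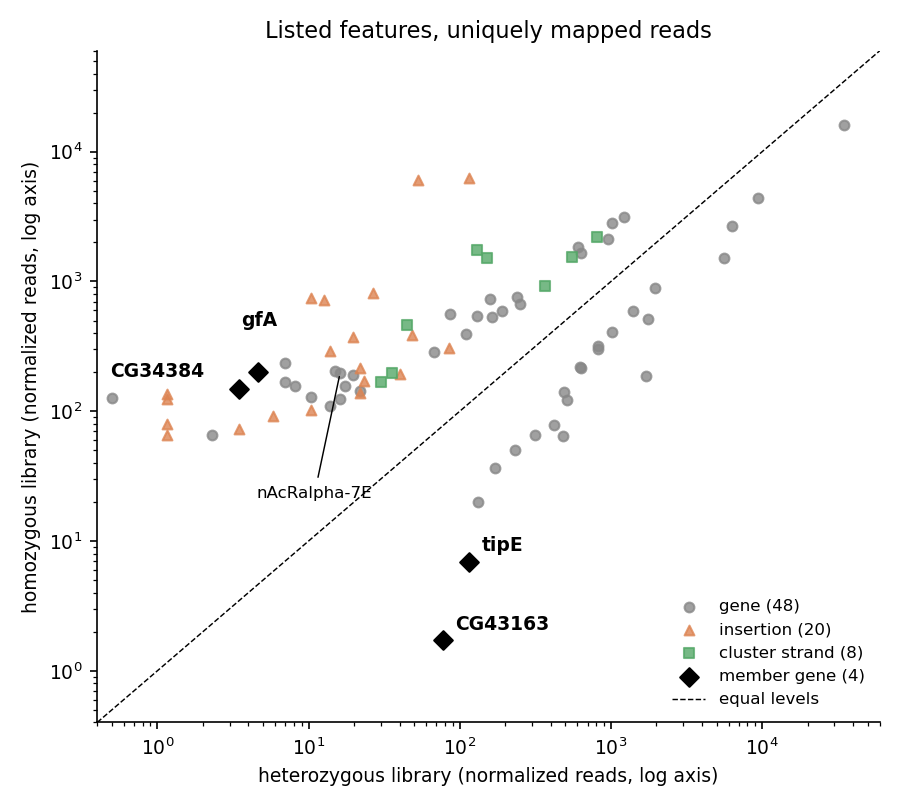
Level of every listed feature with uniquely mapped reads in the heterozygous (x axis) and homozygous (y axis) library, in normalized reads on log axes, with genes, insertions and cluster strands marked apart and the dashed line at equal levels. The member genes (black) lie far from the line at low levels, tipE and CG43163 lowest on the homozygous axis, and the gene with 0 heterozygous reads is drawn at 0.5.

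By position, 4 of the 5 genes lie on chromosome 3, which also carries mino, on 3R from 27925191 to 27933077 in dm6. Of these 4, tipE and CG18675 overlap and share an exon stretch, so they are not separate positions. The background is 44.0% of all protein-coding genes in dm6. Of the listed genes with uniquely mapped reads and a dm6 position, 13 of 27 higher and 8 of 23 lower ones lie there, or 48.1% and 34.8%. CG34384 is on the same arm as mino, 20070 kb away, and tipE, CG18675 and CG43163 are on the other arm. GfA, on the X chromosome, is not linked to mino. Whether the X chromosomes of the genotypes also differed is not stated, and the part of X variants was not tested. Variants of chromosome 3 that travel with the mutation differ between the genotypes as the mutation does, so for the 4 genes on that chromosome their part cannot be told apart from that of CG5508.

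Transposon insertions annotated in dm6 lie within 3 of the genes, all in introns. CG43163 contains roo{}958, of 9101 bases from 8481828 to 8490928, and blood{}959, of 7410 bases from 8498352 to 8505761, both on its own strand. Neither insertion was in any list. Other copies of these LTR retrotransposons were, as 10 of 29 blood and 2 of 144 roo insertions were higher with up to 10 mappings, and the medians of their folds in the authors' deposited table were 109 and 22.8. Of all entries tested, 1.55% were listed as higher there, and the 2 of 144 roo copies are near that share. The copies are those annotated in dm6, and how many of any family the authors tested is not known. The comparison is therefore rough. Copies of a family share reads and are not independent.

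The other insertions are shorter. CG34384 contains invader3{}1256 and 1360{}1257, of 302 and 1107 bases, on the opposite strand, and gfA contains INE-1{}5595, of 215 bases, on its own strand. None of these was listed. Of their families, 4 of 37 invader3 copies were higher with up to 10 mappings, at a median fold of 6.85 in the authors' deposited table, and no copy of 1360 or INE-1 was listed. No annotated insertion overlaps tipE or CG18675. Insertions carried by these flies but absent from the reference were not analysed here, and whether a local insertion bears on any of the differences was not tested.

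The listed features nearest to each gene were looked up on its chromosome arm. The nearest to CG34384 was CG10445, 61.2 kb downstream, which was lower, with 148 heterozygous and 42 homozygous reads, a 4.71-fold fall (3.33 to 6.81). CG34384 itself was higher. The next 4 listed features were insertions 77.0 to 110.9 kb away on the other side. These were Stalker2{}1255, invader3{}1254, invader3{}1714 and gypsy3{}1250, higher by 36.6-fold, 4.81-fold, 8.69-fold and 8.83-fold in the authors' deposited table. Both lower lists held genes alone (23 of 23 and 21 of 21 features). Every listed insertion was thus higher, so nothing is read from a direction shared with CG34384. In dm6 gypsy3{}1250 lies within invader3{}1714, so reads can count for both. For CG43163 the nearest was the eggshell gene Cp15, 221 kb away, which fell 2.37-fold (2.27 to 2.48). The nearest to gfA was the insertion Idefix{}170, 88.9 kb away, higher by 5.66-fold in the authors' deposited table. Apart from each other, tipE and CG18675 had no listed feature closer than the insertion diver{}926, at 707 kb from tipE.

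Genes of the same families were looked up in the lists. Of 10 nicotinic receptor subunit genes, 2 were higher and none lower, in both read treatments, where the shares of all entries listed as higher were 0.515% and 1.55%. One of the 2 is gfA, chosen for its difference, and nothing particular to the family is read from the count. The other was nAcRalpha-7E, now nAChRalpha3, another X-linked alpha subunit gene from 8276200 to 8367169. It held 230 homozygous and 14 heterozygous reads, or 198.9 and 16.2 normalized reads, a 12.3-fold difference (7.17 to 22.8). Its homozygous level was close to the 200.6 of gfA and its heterozygous level above the 4.63 of gfA. With up to 10 mappings it was 9.52-fold higher (5.97 to 16.1) in the authors' deposited table. An exon of nAChRalpha3 overlaps CG1636 on the opposite strand in dm6, and it is not stated whether reads were counted by strand, so these reads are uncertain.

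In the other families the only listed gene was the member itself. Of 7 genes for the voltage-gated sodium channel, its relative NaCP60E and their auxiliary subunits, 1 was lower, tipE, and none higher. Of 4 diacylglycerol kinase genes, 1 was higher, CG34384, and none lower. Of all entries, 0.137% were listed as lower and 0.515% as higher with uniquely mapped reads, or 0.114% and 1.55% with up to 10 mappings. TipE and CG34384 were chosen for their differences, so nothing about either family is read from these counts. The sodium channel gene para, on whose channel tipE acts, was in no list.

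Markers of nerve tissue, which a dissected ovary could carry along, were looked up as well. With uniquely mapped reads 0 of 12 neuron and 0 of 7 glia markers were listed in either direction. Of all entries, 0.515% were listed as higher and 0.137% as lower there. With up to 10 mappings 1 of the 12 neuron markers was higher, Snap25, which encodes a protein of synaptic vesicle fusion, and 0 of the 7 glia markers. The share of all entries listed as higher there was 1.55%, and nothing is read from a single marker. Snap25 had a mean of 1626 normalized reads and was 18.9-fold higher in the authors' deposited table. It was in no uniquely mapped list, and the part of reads with several mappings in its difference was not tested. Its span on 3L from 24074180 to 24299205 overlaps 6 annotated insertions, none of them listed. Levels of the other 18 markers were not analysed here, and the part of nerve tissue in the differences of gfA, nAcRalpha-7E and tipE was not tested. GfA and nAcRalpha-7E were higher and tipE was lower in the same homozygous library. GfA and tipE were chosen for their differences, so nothing is read from these directions.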

How the data were processed

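The authors deposited lists of features past their test. Per the submitters' processing notes, the authors used DESeq 1.8.2, bedtools, Bowtie 0.12.8, TopHat 1.4.1 and the build dm3, in roles that are not given. Per the labels' protocols, total RNA was primed not quite at random. Of 5 deposited lists 4 were used, since the list of piRNA cluster strands holds none of the genes. Signal columns hold normalized read counts, per the file headers. The deposited fold is the ratio heterozygous to homozygous, with its log2 beside it, and raw and adjusted p-values are the authors' own. No p-value was computed here, as each genotype had 1 library.

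Uniquely mapped values were whole multiples of 1.156 (heterozygous) and 0.8647 (homozygous) normalized reads, in all 143 entries of each library, within 0.001 read. Reads were recovered from these steps. For up to 10 mappings, 4 columns of single libraries, zucMUT and zucCD in both lists, carry names of neither sample and were left aside. Levels there were solved from the authors' mean and fold. They gave whole reads within 0.01 read in all 394 entries of each library. In 34 of 134 shared entries the log2 fold differed between the treatments by the same −0.00585, and on that basis both were treated as one comparison, without a label that says so. Numbers of entries tested were taken from adjusted p times rank over raw p, the median over entries, which 130 of 143 and 374 of 394 entries gave within 0.5%.

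Of several entries of a gene, that with the highest mean stands for it. Fold intervals are exact conditional binomial (Clopper-Pearson) and read intervals exact Poisson (scipy 1.17.1), tested on simulated data. They cover counting error only, since no molecular identifiers are named. Positions are those of dm6 in the Ensembl annotation (release 115), matched by FlyBase identifier, with none converted from dm3. All members and family genes were matched. The text names the 5 genes, the listed features nearest to or overlapping them, and listed genes of the family and marker lists. The members and lists were chosen with earlier results of these data known.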

Additional observations from a re-analysis of the deposited data

How the results depend on the processing

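No paired analysis was possible because there was only 1 library of each genotype, and none could be left out. Of 36 alternative values, 30 stayed within the counting interval or within 1.5 times of the main count. Some of these could not move. The entry with the largest fold was the main entry, and genes chosen for large differences stay past a 4-fold threshold. Up to 10 mappings reuse largely the same reads, so the count of 30 is no measure of robustness. The direction of each gene was fixed by its choice. A pseudocount of 10 normalized reads brought gfA to 14.4-fold, CG34384 to 11.7-fold, tipE to 7.43-fold and CG43163 to 7.46-fold, each below its interval, because the added reads exceed the low library's level. At a mean of at least 50 normalized reads, 1 lower member gene remained with uniquely mapped reads in place of 2. Requiring the authors' adjusted p to be under 0.01 left 1 of 3 with up to 10 mappings, tipE, since the authors' deposited table gives an adjusted p of 0.0267 for CG43163 and 0.0873 for CG18675. Scaling by the reads of all listed features (85648 homozygous and 67961 heterozygous) kept the 4 folds within their intervals. It moves every fold up or down by the same small factor, and those features were listed for differing, so it is no check of depth. It could not be fitted for CG18675, which has no uniquely mapped value here. Depth limits the low side, where 2 to 8 reads set the fold.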
